A study of Mus musculus with 8 samples.

Results

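The genes described here are 10 heat shock and chaperone genes of the mouse: Hspa1a, Hspa1b, Hspa8, Dnajb1, Hsph1, Hsp90aa1, Hspd1, Hspe1, Hspa5 and Hsp90b1. They were chosen by name. Each was read from the probe sets annotated to that symbol alone, and the brightest of these on average gave the gene's value. All 10 were measured, out of 12393 genes, and 22 probe sets reported them. Values are log2 intensities, so a difference of 1 is a doubling.

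The study compared 3 kinds of blood-forming cells of C57/BL6 mice, given as 12 weeks old, on Affymetrix 3′ expression arrays. LSK cells (3 arrays) are marrow cells without lineage markers that carry Sca1 and Kit, and were sorted from wild-type animals for which no treatment is named. WT LICs (3 arrays) are leukaemia-initiating cells with the same surface markers plus GFP, sorted from mice with a retrovirally induced chronic myeloid leukaemia (CML) on day 14 after marrow transplantation. Ezh2 KO LICs (2 arrays) came from the same model and day and are labelled as knockouts of Ezh2, the histone methyltransferase of Polycomb repressive complex 2. All samples passed through the sorter repeatedly for purity, and the labels call the repeats biological without saying whether animals were pooled. The sources used here do not give the retroviral oncogene, the Ezh2 allele or how it was deleted. Transplantation, retroviral infection and leukaemia cannot be told apart in the comparisons with LSK cells. The p-values measure the spread between these arrays.

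Chaperones bind unfolded proteins and keep them from aggregating while they fold. In the cytosol and nucleus the HSP70 proteins work with J-domain partners, which load the client, and with nucleotide exchange factors, which release it, and HSP90 matures kinases and receptors further on, the BCR-ABL kinase of CML among its known clients. Mitochondria and the endoplasmic reticulum (ER) hold their own sets. Heat shock factor 1 induces cytosolic and mitochondrial chaperones through heat shock elements in their promoters, and the unfolded protein response induces ER chaperones through ER stress elements.

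Ezh2 was at 8.94 and 9.55 on the Ezh2 KO arrays and between 11.26 and 11.44 on the WT LIC arrays. Kit, the receptor used in the sort, was at 10.95 in LSK cells, 9.77 in WT LICs and 10.17 in Ezh2 KO LICs. The 8 measured markers of stem and progenitor cells, Kit among them, summed to an intensity of 10990 to 11429, 4948 to 7205 and 6461 to 7951 in that order. Between WT LICs and LSK cells none of the 8 differences was above 0, against 52.2% of all genes. Kit (adjusted p = 0.00886, limma) was 1 of 2 called lower, against 2.15% of all genes. Ly6a, which encodes Sca1, was not analysed here. Immunoglobulin genes stood out in LSK cells. There the 14 measured markers of antibody-secreting cells summed to an intensity of 14476 to 19480, against 3506 to 4232 in WT LICs and 4039 to 5632 in Ezh2 KO LICs. Jchain, the joining chain of secreted antibody, was at 10.89 in LSK cells and 5.12 in WT LICs. Of the 14, Jchain, Ighm and Igk were called lower in WT LICs than in LSK cells and Creld2 higher, and 5 differences were above 0. Of all genes, 2.15% were called lower there, 1.27% were called higher and 52.2% were above 0. Markers of B cells stood out in Ezh2 KO LICs, with 13 measured genes summing to 5762 and 9049 there, against 976 to 1472 in LSK cells and 495 to 994 in WT LICs. Of the 14 antibody-secreting cell genes, 13 to 14 lay above background on the LSK arrays and 10 to 12 on the LIC arrays, and of the 13 B cell genes 7 to 10, 5 to 9 and 10 did so in LSK cells, WT LICs and Ezh2 KO LICs. Neutrophil and monocyte markers (18 genes) summed to 18824 to 20381, 20082 to 23575 and 11904 to 20417 in the same order of groups, and erythroid markers (9 genes) to 10357 to 11175, 4924 to 15047 and 6021 to 6404. The part of these cells in the results below was not tested, and in bulk samples fewer cells of a type and less RNA per cell cannot be told apart. The highest mean among 27 bacterial control probe sets, 4.01, is used as the background level.

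Promoter windows of RefSeq (GRCm38.p6, 250 bases before to 50 after an annotated start) were held for 8 of the 10 genes, in 11 windows, and not for Hspa8 and Hsp90aa1. They were searched on both strands for the core of the heat shock element, GAANNTTC or TTCNNGAA, which 15.1% of 32851 windows of all genes held. A heat shock element of 3 units, in which both cores overlap by a shared GAA or TTC, was in 0.603% of the windows. The ER stress element, written here as CCAAT, any 9 bases and CCACG, was in 0.119%. The 5 windows below are shown because they hold these letters in the genes whose levels are described next. Capitals mark heat shock element cores or ER stress elements. Hspe1 lies on the plus strand at chr1:55087898-55088197, Hsph1 on the minus strand at chr5:149636287-149636586, Hspa1b on the minus strand at chr17:34959189-34959488, Hspa5 on the plus strand at chr2:34771840-34772139 and Hsp90b1 on the minus strand at chr10:86705395-86705694.
Hspe1: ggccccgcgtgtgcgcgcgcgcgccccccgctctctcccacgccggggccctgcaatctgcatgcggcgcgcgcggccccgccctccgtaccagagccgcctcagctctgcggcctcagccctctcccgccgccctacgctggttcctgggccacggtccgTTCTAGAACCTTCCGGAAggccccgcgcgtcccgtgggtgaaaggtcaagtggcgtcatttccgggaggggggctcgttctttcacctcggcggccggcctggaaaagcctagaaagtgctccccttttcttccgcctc
Hsph1: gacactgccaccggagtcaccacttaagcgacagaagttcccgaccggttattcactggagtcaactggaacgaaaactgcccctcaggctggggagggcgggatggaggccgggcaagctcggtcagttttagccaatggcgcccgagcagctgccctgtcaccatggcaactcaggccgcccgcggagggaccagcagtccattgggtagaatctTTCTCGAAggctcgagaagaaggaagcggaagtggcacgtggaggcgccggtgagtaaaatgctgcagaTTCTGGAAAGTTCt
Hspa1b: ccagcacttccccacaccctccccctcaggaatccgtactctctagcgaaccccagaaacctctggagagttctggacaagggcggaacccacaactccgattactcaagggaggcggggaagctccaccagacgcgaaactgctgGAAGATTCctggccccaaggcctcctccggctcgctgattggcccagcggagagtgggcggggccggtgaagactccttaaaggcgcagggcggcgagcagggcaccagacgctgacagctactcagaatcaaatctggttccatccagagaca
Hspa5: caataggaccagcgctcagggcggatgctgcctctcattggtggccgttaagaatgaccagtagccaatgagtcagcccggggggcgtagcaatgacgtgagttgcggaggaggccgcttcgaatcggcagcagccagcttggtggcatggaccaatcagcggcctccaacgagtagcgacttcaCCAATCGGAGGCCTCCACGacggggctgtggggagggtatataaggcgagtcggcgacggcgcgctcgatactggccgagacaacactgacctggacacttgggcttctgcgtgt
Hsp90b1: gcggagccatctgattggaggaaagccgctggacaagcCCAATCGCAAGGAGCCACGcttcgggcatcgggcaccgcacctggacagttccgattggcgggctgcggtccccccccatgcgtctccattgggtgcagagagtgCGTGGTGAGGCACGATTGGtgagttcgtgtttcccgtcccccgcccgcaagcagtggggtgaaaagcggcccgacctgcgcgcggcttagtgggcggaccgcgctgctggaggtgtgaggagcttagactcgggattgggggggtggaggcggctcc

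The Hspe1 window held 3 overlapping cores, from base -89 to -72 relative to the start, and 285 of its 300 bases were also the window of an annotated start of Hspd1 on the opposite strand. The Hsph1 window held 1 core at -33 to -26 and an element of 3 units at 37 to 49, downstream of the start. The Hspa1b and Hspa1a windows were identical at 296 of 300 positions and held 1 core each, at -104 to -97. Hspa5 held 1 exact ER stress element and Hsp90b1 held 2, 1 on each strand. Neither Dnajb1 window held a core or an ER stress element in these letters. A match is a description of the letters and not of binding.

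**Figure D1:**
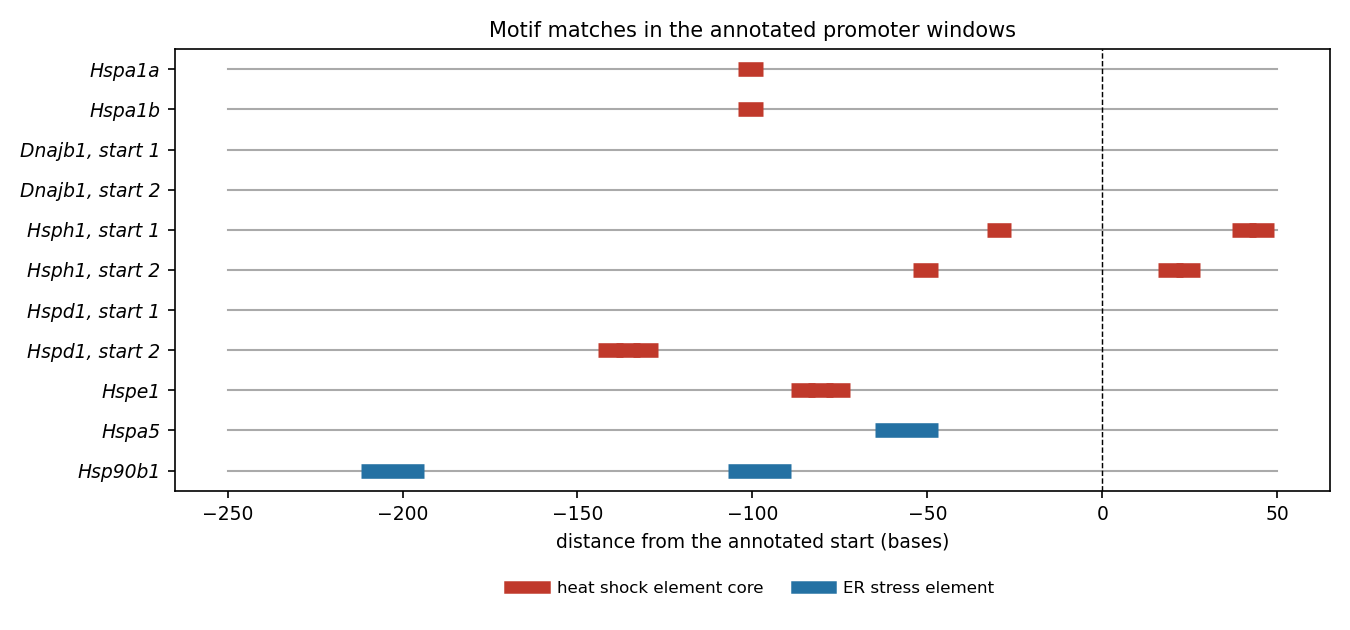
Matches to the heat shock element core (red) and the ER stress element (blue) in the promoter windows of 8 of the 10 genes, by distance in bases from the annotated start (dashed line). Heat shock element cores lie in the windows of Hspa1a, Hspa1b, Hsph1, Hspe1 and 1 of the Hspd1 starts, and ER stress elements in those of Hspa5 and Hsp90b1.

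WT LICs were set against their normal counterparts, LSK cells, first. Of the 10 genes, Hsph1 alone rose, 1.51-fold, against 1.27% of all genes called higher, and none fell, against 2.15% called lower. The mitochondrial pair Hspd1 and Hspe1 and the ER pair Hspa5 and Hsp90b1 had higher levels on each WT LIC array than on any LSK array, by 1.33 to 1.49-fold, without passing the test. Dnajb1 and Hspa8 differed by less than 0.1 on the log2 scale. Calls are limma's, at an adjusted p (Benjamini-Hochberg, all 12393 genes) under 0.05, from a fit of all 3 groups.

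**Figure D2:**
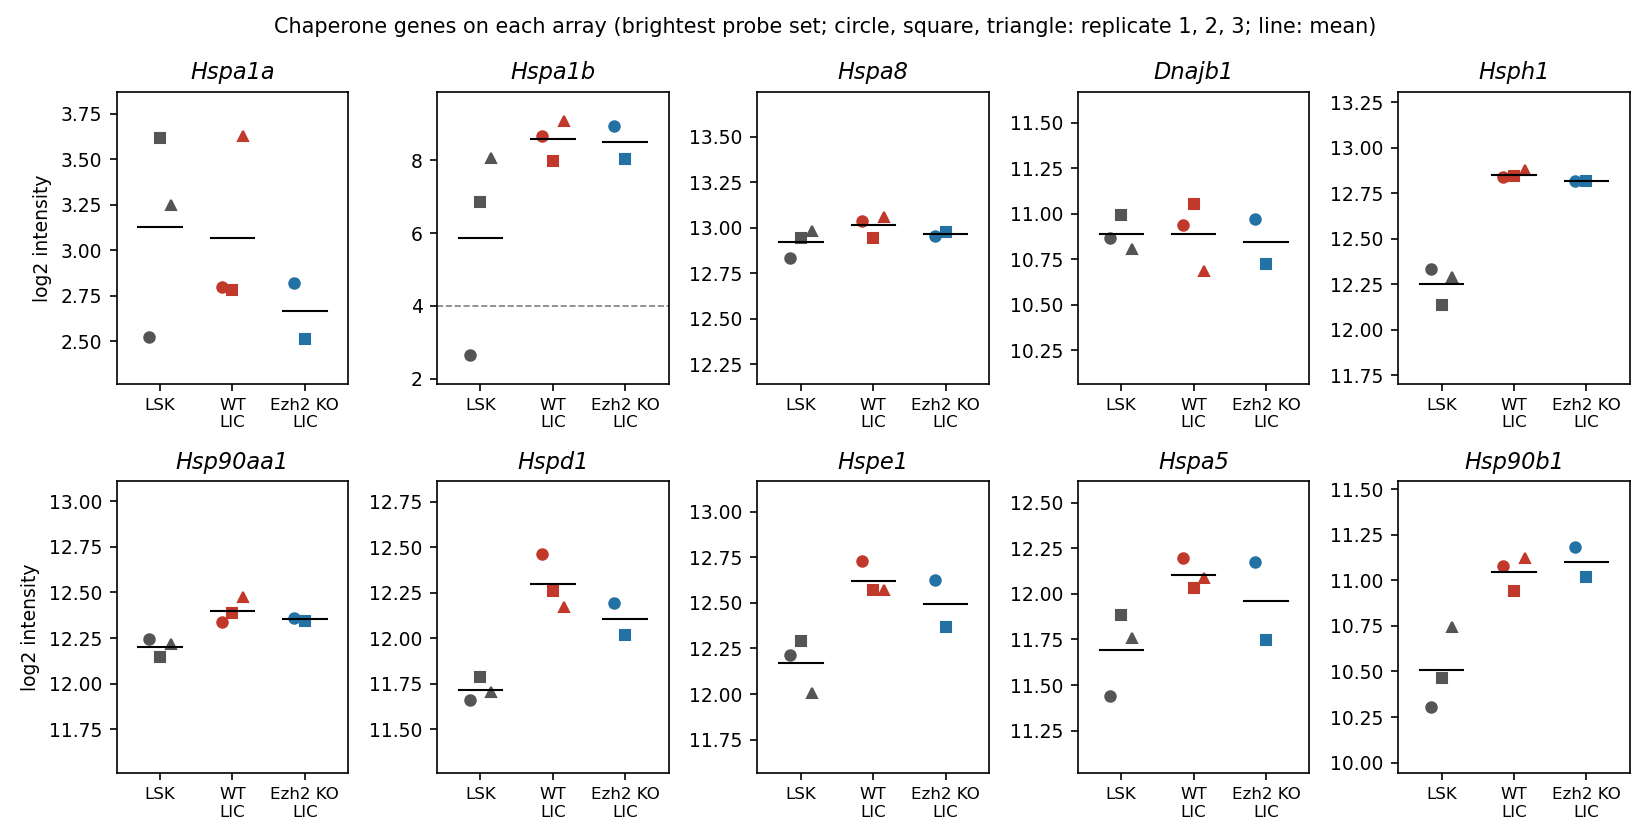
Level of each gene (log2 intensity, brightest probe set) on each array; circles, squares and triangles are replicates 1, 2 and 3, lines are group means, and the dashed line in the Hspa1b panel is the background level of 4.01, above the whole Hspa1a panel. Hsph1 sits near 12.8 on all 5 LIC arrays and at 12.33 or lower on the LSK arrays, and Hspa1b is at 2.66 on LSK replicate 1. The Hspa1b panel has a wider span than the others.

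Hspa1a and Hspa1b encode the stress-inducible cytosolic HSP70 and lie near each other on chromosome 17. Their transcripts are near-identical copies, so the arrays' probe sets may not keep them apart. The single probe set of Hspa1a was between 2.51 and 3.62 on all 8 arrays, under the background level, and gives no level for the gene. Hspa1b, on its brightest probe set, was at 2.66, 6.85 and 8.06 on LSK replicates 1, 2 and 3. It was at 8.67, 7.98 and 9.08 on the WT LIC arrays and at 8.94 and 8.03 on the Ezh2 KO arrays. LSK replicate 1 thus lay under background while LSK replicate 3 lay within the range of the LICs, and the groups overlapped.

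The Hspa1b difference between WT LICs and LSK cells was 2.72 (SE 1.24, adjusted p = 0.272, limma), with a 95% interval from -0.18 to 5.62. Without LSK replicate 1 it was 1.12 (SE 0.50, adjusted p = 0.309). The 2 other Hspa1b probe sets had group means between 2.78 and 3.93, under background. LSK replicate 1 did not stand apart over all genes, with a mean correlation of 0.983 with the other LSK arrays, against 0.982 and 0.985 for replicates 2 and 3. Among 6195 genes above the median level, the 5 whose levels over the 8 arrays were most like those of Hspa1b were Lrr1 (Pearson r 0.97), Grwd1 (0.95), Rpe (0.95), Vps29 (0.94) and Psmc5 (0.93). All 5 were lowest on LSK replicate 1, as was Hspa1b. A choice by likeness to Hspa1b favours such genes, so this is no separate result. Without that array r was 0.87, 0.72, 0.70, 0.61 and 0.96. Lrr1 was at 5.03 on that array, 6.90 on LSK replicate 2 and 6.95 on LSK replicate 3. These correlations are a description of 8 arrays that share groups.

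Hspa8 encodes the constitutive HSP70 of the cytosol, which takes part in routine folding and in uncoating of clathrin vesicles. It was at 12.83, 12.94 and 12.98 on the LSK arrays. The WT LIC arrays gave 13.04, 12.94 and 13.06 and the Ezh2 KO arrays 12.95 and 12.98. All 8 values lay within a narrow span and the groups overlapped. The difference between WT LICs and LSK cells was 0.09 (SE 0.12), with an interval from -0.19 to 0.38, so a doubling lies outside it. The dimmest of its probe sets, at a mean of 6.93, gave 1.00 (SE 0.67).

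Dnajb1 encodes a J-domain protein that heat shock induces with HSP70. It was at 10.87, 10.99 and 10.81 on the LSK arrays. It was at 10.94, 11.05 and 10.69 on the WT LIC arrays and at 10.97 and 10.72 on the Ezh2 KO arrays. The 3 groups covered the same range. The difference between WT LICs and LSK cells was 0.0038 (SE 0.15, interval -0.35 to 0.36), and the dimmer probe set gave 0.16 (SE 0.24).

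Hsph1 encodes HSP110, a nucleotide exchange factor that works with HSP70 to dissolve aggregates. It was at 12.33, 12.14 and 12.29 on the LSK arrays. The WT LIC arrays were at 12.84, 12.84 and 12.88 and both Ezh2 KO arrays at 12.82. The LIC arrays agreed closely and each lay above every LSK array. Hsph1 rose by 0.60 in WT LICs (SE 0.12, adjusted p = 0.0461, limma). The call was lost without any 1 of the 6 arrays compared, where the difference was 0.54 to 0.64 and the adjusted p 0.0728 to 0.133. Its second, dimmer probe set had group means of 8.34, 9.53 and 9.76 in LSK cells, WT LICs and Ezh2 KO LICs. In a fit of all probe sets it rose by 1.19 (SE 0.17, adjusted p = 0.0171), while the brighter one did not pass there (adjusted p = 0.0575).

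Hsp90aa1 encodes the inducible form of cytosolic HSP90. Its levels were 12.25, 12.14 and 12.22 on the LSK arrays, 12.34, 12.39 and 12.48 on the WT LIC arrays, and 12.36 and 12.34 on the Ezh2 KO arrays. Each LIC array was above each LSK array by a small margin. The difference was 0.20 (SE 0.12, adjusted p = 0.402) and did not pass. The other 2 probe sets gave 0.24 (SE 0.13) and 0.44 (SE 0.15). Hsp90ab1, the constitutive form, was not analysed here.

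Hspd1 encodes HSP60, the barrel of the mitochondrial chaperonin, and Hspe1 its lid, HSP10; the genes sit head to head on chromosome 1. Hspd1 was at 11.66, 11.79 and 11.71 on the LSK arrays, and at 12.46, 12.26 and 12.17 on the WT LIC arrays. The Ezh2 KO arrays gave 12.19 and 12.02. Every LIC array lay above every LSK array. The difference between WT LICs and LSK cells was 0.58 (SE 0.14, adjusted p = 0.0669, limma) and did not pass. It passed under 4 of 15 alternatives, among them median centring of the arrays (0.69, adjusted p = 0.0394) and a trended robust prior (adjusted p = 0.0152).

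Hspe1 was at 12.22, 12.29 and 12.01 on the LSK arrays, and at 12.73, 12.57 and 12.57 on the WT LIC arrays. The Ezh2 KO arrays gave 12.63 and 12.37. As for Hspd1, the LSK arrays were the lowest. The difference was 0.45 (SE 0.15, adjusted p = 0.139), and the second probe set gave 0.60 (SE 0.17).

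Hspa5 encodes BiP, the HSP70 of the ER, and Hsp90b1 encodes GRP94, the HSP90 of the ER. Hspa5 was at 11.44, 11.88 and 11.76 on the LSK arrays, and at 12.20, 12.03 and 12.09 on the WT LIC arrays. Ezh2 KO replicates 1 and 2 gave 12.17 and 11.75. WT LIC arrays lay above LSK arrays, and Ezh2 KO replicate 2 lay among the LSK arrays. The difference between WT LICs and LSK cells was 0.41 (SE 0.18, adjusted p = 0.247), with 0.53 (SE 0.19) on the second probe set.

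Hsp90b1 was at 10.31, 10.46 and 10.74 on the LSK arrays, and at 11.08, 10.94 and 11.12 on the WT LIC arrays. The Ezh2 KO arrays gave 11.18 and 11.02. All LIC arrays lay above all LSK arrays. The difference was 0.54 (SE 0.16, adjusted p = 0.108), and the dimmer probe set gave 0.23 (SE 0.14). Antibody-secreting cells are rich in ER chaperones. Their immunoglobulin markers Jchain, Ighm and Igk were called higher in LSK cells, the group with the lower Hspa5 and Hsp90b1. Creld2 of the same list was called higher in WT LICs. Txndc5 and Xbp1, also of that list, were 0.53 and 0.43 above LSK cells without passing (adjusted p = 0.232 and 0.32, limma). Sdc1 of that list was 3.21 below LSK cells without passing (adjusted p = 0.0507, limma). At an unadjusted p under 0.05, 7 of the 14 genes were lower in WT LICs and 2 higher. Of all genes, 11.2% were lower and 9.33% higher. The part of antibody-secreting cells was not tested.

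**Figure D3:**
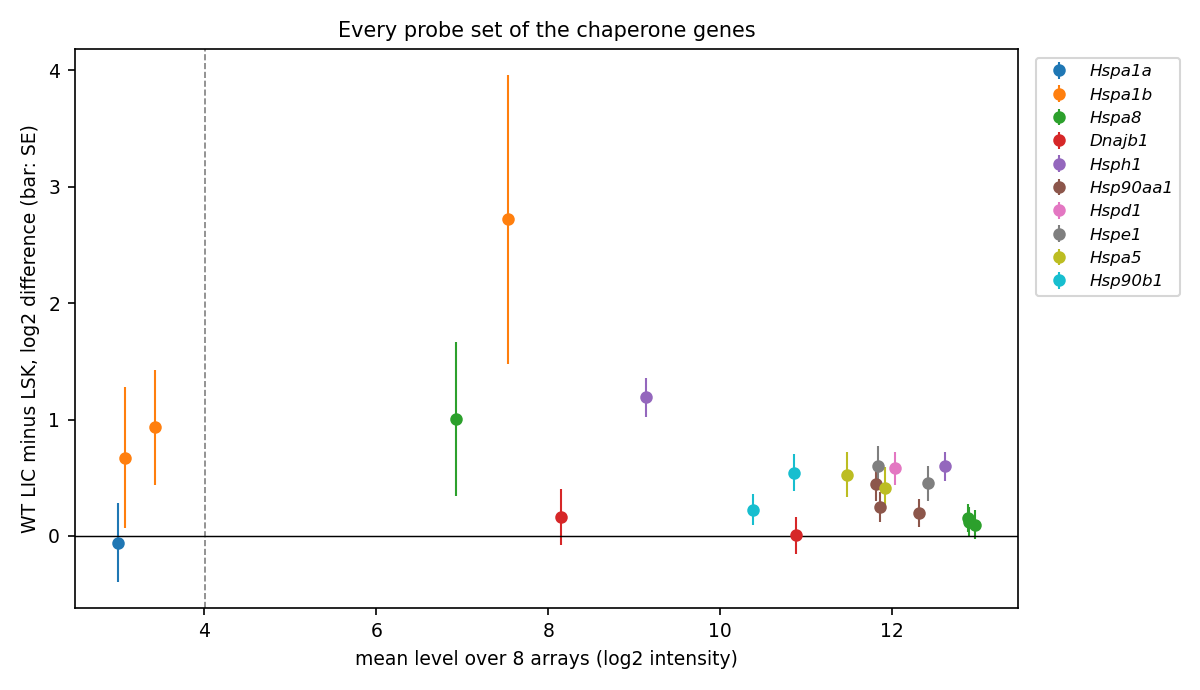
Difference between WT LICs and LSK cells (log2, bars are standard errors of the fit over all probe sets) against mean level over the 8 arrays for the 22 probe sets of the 10 genes; the dashed line is the background level of 4.01. The bright probe sets lie between about 0 and 0.6, the dimmer Hsph1 probe set lies at 1.19, and 3 of the 4 Hspa1a and Hspa1b probe sets lie under background.

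Counted together, 9 of the 10 differences between WT LICs and LSK cells were above 0, with a median of 0.43, against 52.2% of all genes above 0 and a median of 0.02. Hsph1, Hspd1, Hspe1 and Hsp90b1 had an unadjusted p under 0.05 in the higher direction, as had 9.33% of all genes. In 6 genes each WT LIC array was above each LSK array, as in 13.5% of all genes. Centring the arrays on their medians moved the median of all genes to 0.13 and that of the 10 genes to 0.54. Over groups, LSK cells had the lowest mean of 8 genes and WT LICs the highest of 8, and 7 followed the order LSK cells, Ezh2 KO LICs, WT LICs. The shares of all genes with these patterns were not counted. In each of the 7 but Hspd1, Ezh2 KO and WT LICs differed by less than the SE of that difference. The arrays of WT and Ezh2 KO LICs overlapped in every one of the 10 genes but Hsph1.

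Ezh2 KO LICs were next set against WT LICs, which share the disease model and day. None of the 10 chaperone genes was called, against 0.637% of all genes, and none had an unadjusted p under 0.05, against 11.1% of all genes. The differences ran from -0.40 for Hspa1a, which was under background, to 0.05 for Hsp90b1, with a median of -0.07 (all genes -0.05) and adjusted p between 0.681 and 0.988 (limma). The intervals bound the change for the bright genes: -0.35 to 0.28 for Hsph1, -0.36 to 0.27 for Hspa8, -0.36 to 0.26 for Hsp90aa1 and -0.45 to 0.35 for Dnajb1. For Hspd1 the difference was -0.19 (interval -0.55 to 0.17), for Hspe1 -0.13 (-0.51 to 0.25), for Hspa5 -0.14 (-0.61 to 0.32) and for Hsp90b1 0.05 (-0.35 to 0.46). A change of 1 on the log2 scale lies outside each of these 8 intervals, which are for the brightest probe set of each gene. The dimmest Hspa8 probe set, at a mean of 6.93, gave -1.57 (SE 0.74) and is not bounded in this way. For Hspa1b the interval ran from -3.34 to 3.15 and bounds little; its SE was 1.39 with all 3 groups in the fit and 0.43 with the LIC groups alone. Hsph1 was lower on both Ezh2 KO arrays than on any WT LIC array, by 0.04 in the mean. In 16.6% of all genes the groups did not overlap in that direction.

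The 2 Ezh2 KO arrays differed from each other. Of the 10 genes, 8 were higher on replicate 1 than on replicate 2, among them Hspa1b at 8.94 against 8.03, Hspa5 at 12.17 against 11.75 and Hspe1 at 12.63 against 12.37, while 51.2% of all genes were higher on replicate 1. The 8 include Hspa1a, which was under background. Immediate early genes are transcription factors and regulators switched on within minutes of a stimulus. The 22 measured summed to an intensity of 18317 on replicate 1 and 31605 on replicate 2. Such a sum is weighted to bright genes, and these genes were not counted by direction. They summed to 9192 to 9410 on the WT LIC arrays and 10447 to 14711 on the LSK arrays.

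**Figure D4:**
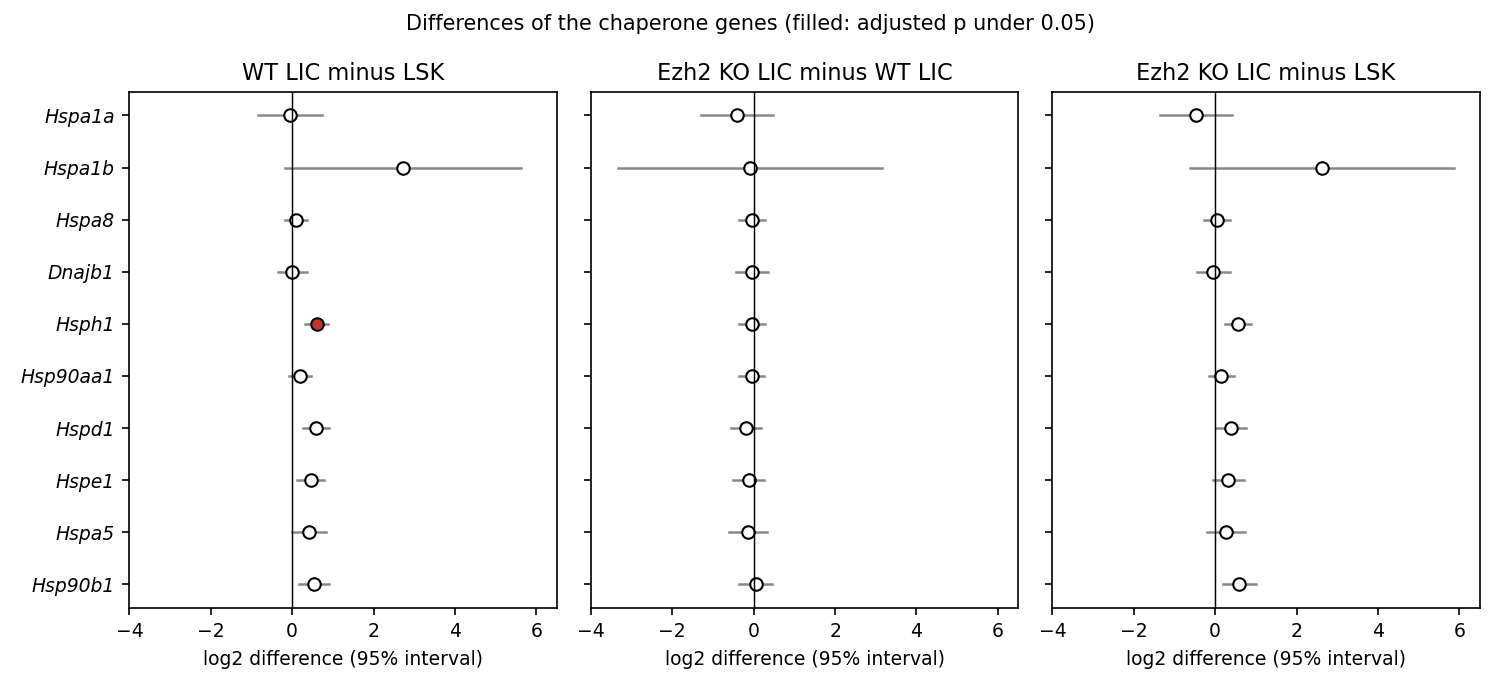
Differences of the 10 genes in the 3 comparisons on the log2 scale, with limma's 95% intervals; the filled point passed at an adjusted p under 0.05. Hsph1 between WT LICs and LSK cells is the single filled point at 0.60, and the points between Ezh2 KO and WT LICs lie between -0.40 (Hspa1a) and 0.05.

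The third comparison set Ezh2 KO LICs against LSK cells. It shares its LSK arrays with the first comparison and its Ezh2 KO arrays with the second. None of the 10 genes was called, against 3.47% of all genes, and 3 had an unadjusted p under 0.05 on the higher side, against 8.84%. Hsph1 was 0.56 higher (SE 0.14, adjusted p = 0.0713, limma), Hsp90b1 0.60 (SE 0.17, adjusted p = 0.116) and Hspd1 0.39 (SE 0.15, adjusted p = 0.223). The dimmer Hsp90b1 probe set gave 0.06 (SE 0.15). The dimmer Hsph1 probe set gave 1.42 (SE 0.19) and passed in the fit of all probe sets (adjusted p = 0.0146, limma). The Hspe1 difference was 0.33 (SE 0.16) and that of Hspa5 0.27 (SE 0.20), while Dnajb1 was at -0.04 and Hspa8 at 0.05. In 5 of the 10 both Ezh2 KO arrays lay above all LSK arrays, as in 18.2% of all genes. Hsph1 passed with a trended robust prior (adjusted p = 0.00655) and with the mean of its 2 probe sets (0.99, adjusted p = 0.0152).

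Other chaperones and their helpers were read from 4 lists. Of 34 measured cytosolic heat shock proteins, co-chaperones and heat shock factors, none was called higher and 2 lower in WT LICs than in LSK cells, with 23 differences above 0 and a median of 0.24. At an unadjusted p under 0.05 there were 11 higher and 4 lower, against 9.33% and 11.2% of all genes. The shares of all genes called were 1.27% higher and 2.15% lower, and 52.2% of all genes were above 0. The 2 were Hspb8, a small heat shock protein that acts with BAG3 in selective autophagy, and Serpinh1, an ER-resident collagen chaperone whose group means all lay under background. St13 and Fkbp4, which assist HSP70 and HSP90, were 0.71 and 0.73 above LSK cells (adjusted p = 0.0616 and 0.0919). Hsf1 was not analysed here, and Hsf2 lay under background, with group means of 2.38 to 2.84.

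Hspb8 had the largest difference of that list between Ezh2 KO and WT LICs. It was at 6.0, 6.03 and 5.55 on the LSK arrays, at 4.55, 3.31 and 4.04 on the WT LIC arrays, and at 8.0 and 7.31 on the Ezh2 KO arrays. The 3 groups did not overlap, with WT LICs lowest and Ezh2 KO LICs highest. The level in Ezh2 KO LICs exceeded that in WT LICs at least 12.5-fold (adjusted p = 0.0117, limma), and WT LICs were at least 3.61-fold below LSK cells (adjusted p = 0.0326). Each fold is taken against the background level, because the WT LIC mean of 3.97 lay under it. The knockout call was lost without Ezh2 KO LIC replicate 1 (adjusted p = 0.0525) and with the LIC groups fitted alone (0.0593), and with the mean of its probe sets the difference was 1.57, against 3.69. Leaving out any 1 LSK array, or replicate 2 of the WT LICs, ended the call against LSK cells (highest adjusted p 0.0941), and the mean of its probe sets gave -0.98. Hspb8 was the 1 of 34 called in the knockout comparison, where 0.589% of all genes were called higher, and the list's median was -0.17.

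Of 13 subunits of the TRiC chaperonin, which folds actin and tubulin, and of prefoldin, which feeds it, none was called in any of the 3 comparisons. The median over them was 0.24 in WT LICs relative to LSK cells, with 11 above 0, and -0.13 between Ezh2 KO and WT LICs. An unadjusted p under 0.05 was reached by 3 genes, all higher, in the former, against 9.33% of all genes on the higher side and 11.2% on the lower. In the latter 1 gene reached it, lower, against 4.97% of all genes on that side. Between WT LICs and LSK cells 1.27% of all genes were called higher and 2.15% lower, and 52.2% were above 0. Pfdn6 had the smallest p, with 0.69 (SE 0.17, adjusted p = 0.0707). Of 13 mitochondrial chaperones and proteases none was called either, with medians of 0.26 and -0.07 and 11 above 0 in WT LICs, where 2 had an unadjusted p under 0.05 on the higher and 1 on the lower side. The smallest p was that of Hscb, a J-domain protein of iron-sulphur cluster assembly, which was at 9.58 in LSK cells and 9.16 in WT LICs (adjusted p = 0.154). Hspa9, the HSP70 of mitochondria, was at 11.52 in LSK cells and 11.96 in WT LICs (adjusted p = 0.158). Of its exchange factors, Grpel1 was at 10.65 and 11.22 (adjusted p = 0.266) and Grpel2 at 9.06 and 8.43 (adjusted p = 0.29), with the second chosen after its values were seen. Dnaja3, its J-domain partner, was at 11.16 and 11.52 (adjusted p = 0.211).

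Of 34 other ER chaperones, folding enzymes and unfolded protein response genes, 2 rose in WT LICs and none fell, with a median of 0.14 and 24 above 0. Of all genes, 1.27% were called higher and 2.15% lower, and 52.2% were above 0 with a median of 0.02. At an unadjusted p under 0.05, 8 of the 34 were higher and 2 lower, against 9.33% and 11.2% of all genes. Creld2, an ER stress-induced protein, was at 8.83, 8.65 and 8.82 on the LSK arrays and at 9.82, 9.47 and 9.89 on the WT LIC arrays. It rose by 0.96 (SE 0.18, adjusted p = 0.0363). Sdf2l1, an ER protein that works with BiP and its J-domain partners, was at 8.02, 7.91 and 7.13 against 9.20, 8.76 and 9.23. It rose by 1.38 (SE 0.28, adjusted p = 0.0465).

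Both calls were lost without any 1 of the 6 arrays, with adjusted p up to 0.114 for Creld2 and 0.137 for Sdf2l1. Ero1a, an ER oxidase, differed by 0.58 (SE 0.14, adjusted p = 0.0669). Creld2, Txndc5 and Xbp1 also stand on the list of antibody-secreting cell markers. No gene of the ER list was called between Ezh2 KO and WT LICs, against 0.637% of all genes. In that comparison 1 had an unadjusted p under 0.05, on the lower side, against 4.97% of all genes on that side. Between Ezh2 KO LICs and LSK cells, where 1.61% of all genes were called higher and 1.86% lower, Serpinh1 was called lower and no other gene of the 4 lists was called.

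Immediate early genes are given beside the chaperones as a second group of genes that respond to stimuli. Their median difference between Ezh2 KO and WT LICs was 1.46, with 21 of 22 above 0 and 2 called higher. Of all genes, 43.3% were above 0 with a median of -0.05, and 0.589% were called higher. Atf3, a stress-responsive transcription factor, rose at least 5.52-fold (adjusted p = 0.0178) and Fosb, a partner of JUN proteins in AP-1, at least 19.3-fold (adjusted p = 0.0288), both against the background level. Atf3 lost its call without WT LIC replicate 1 or 2 (adjusted p = 0.071 and 0.0663) and Fosb without either of these or Ezh2 KO LIC replicate 2 (0.109, 0.0963 and 0.0909). With the LIC groups fitted alone both had an adjusted p of 0.0898. For the 10 chaperone genes the median was -0.07, with 1 above 0. A test of the difference between these lists was not made. Between WT LICs and LSK cells the list had a median of -0.48 with 10 of 22 above 0. Btg2, an antiproliferative gene, fell by 2.47 (SE 0.30, adjusted p = 0.00948), and no other gene of the list was called. In that comparison 52.2% of all genes were above 0 with a median of 0.02, and 2.15% were called lower.

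**Figure D5:**
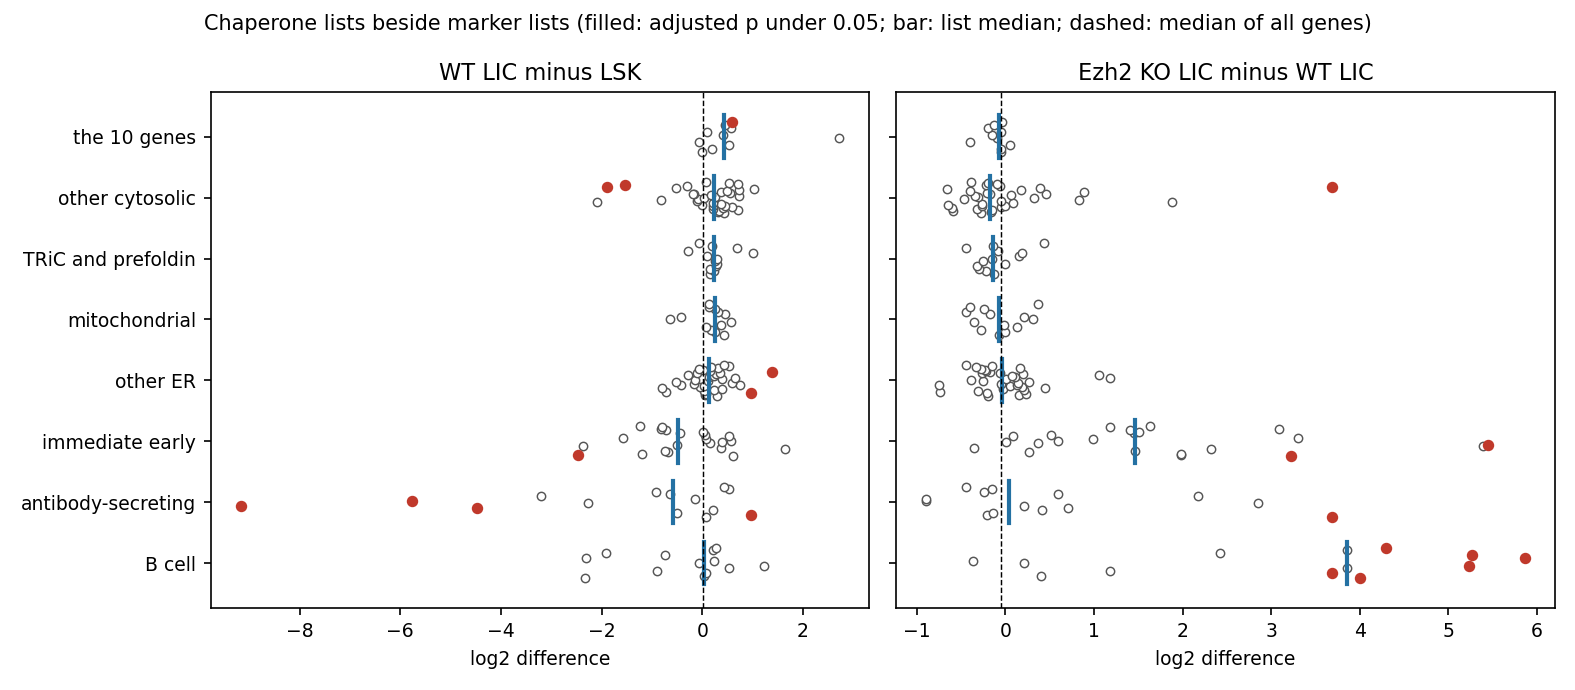
Log2 differences of single genes in the lists, between WT LICs and LSK cells (left) and between Ezh2 KO and WT LICs (right); filled points passed at an adjusted p under 0.05, blue bars are list medians and the dashed line is the median of all genes. The chaperone lists have medians of 0.14 to 0.43 on the left and of -0.17 to -0.04 on the right, where immediate early genes have 1.46 and B cell genes 3.85.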

How the data were processed

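Expression was measured on 8 arrays, from total RNA amplified by SPIA per the labels' protocols. Per the submitters' processing notes the authors used RMA; the sources used here give no version or scan batch, and a hybridisation batch and the group cannot be told apart. The deposited values were linear intensity values on a common distribution (SD of sorted log2 values at most 0.08). They were put on log2 without a pseudocount. Of 22690 probe sets, 64 controls were left out, and 691 with several symbols and 1555 not listed in the annotation entered no test of genes. The other 20380 gave 12393 genes, by the brightest probe set, without a filter on dim genes; 20351 probe sets matched RefSeq (GRCm38.p6) by gene ID.

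The 3 groups were fitted together with limma 3.58.1 under R 4.3.3 (lmFit, eBayes, 2-sided, 5 residual degrees of freedom), with Benjamini-Hochberg adjustment over all genes. An exact permutation test of 3 arrays against 3 cannot go below p = 0.1, and none was run. Precision is limited by the number of arrays, with a median SE per gene of 0.21 for WT LICs against LSK cells and 0.23 for Ezh2 KO against WT LICs. The fit was tested on simulated data, with 50 changed genes at each size. Between WT LICs and LSK cells it recovered 0 changes of 0.5 on the log2 scale, 22 of 1 and 41 of 2. The knockout comparison recovered 1, 17 and 38 at those sizes. False calls numbered 8 in the former and 4 in the latter. A difference near 0.5 would thus rarely be called, and a missing call at that size does not show that a gene was unchanged. Plots used matplotlib 3.10.9.

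The genes and lists were chosen with earlier results of these data known. Named were the 10 genes, Ezh2, up to 4 genes of the smallest p and the called genes of the chaperone and immediate early lists, and the 5 genes most like Hspa1b. Of the marker lists, Kit, summed levels and counts are given. Of the antibody-secreting cell list, the genes called between WT LICs and LSK cells and Txndc5, Xbp1 and Sdc1 are also named. The deviations of same-numbered arrays from their group means correlated at -0.05 to -0.02 between WT LICs and LSK cells, at 0.14 (replicate 1) and 0.02 (replicate 2) between Ezh2 KO and WT LICs, and at -0.02 and -0.01 for Ezh2 KO LICs against LSK cells. The labels name no shared source, and repeat numbers were not used as pairs.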

Additional observations from a re-analysis of the deposited data

How the results depend on the processing

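Over 427 values of the 10 genes under the alternatives (median or quantile scaling, only genes above the 40th percentile of level, a trended robust prior, array weights, the compared groups alone, the replicate block, the mean of probe sets, all probe sets tested, and 1 array left out in turn), 385 kept their direction and side of the threshold, 9 lost the Hsph1 call, 7 gained a call and 26 changed sign. The cause of these changes was not tested. No value that changed sign was called. Among genes called between WT LICs and LSK cells (424), array weights gave 917 and the replicate block 252, and leaving out 1 array gave 176 to 643, the highest without WT LIC replicate 3. Between Ezh2 KO and WT LICs (79), the filter on dim genes gave 32, array weights 119, the compared groups alone 35, the replicate block 36, and leaving out 1 array 25 to 146. Between Ezh2 KO LICs and LSK cells (430), the replicate block gave 147 and leaving out 1 array 118 to 225. Of the 10 genes, 1 was called between WT LICs and LSK cells; the filter on dim genes, median centring and array weights gave 2, a trended robust prior 3, and the compared groups alone, the replicate block, all probe sets tested and leaving out any 1 array gave 0. Between Ezh2 KO LICs and LSK cells a trended robust prior and the mean of probe sets gave 1. Between Ezh2 KO and WT LICs the count stayed 0 under each alternative. Values that changed sign were, between WT LICs and LSK cells, Hspa1a under median centring (0.047; -0.36 to 0.18 without 1 array) and Dnajb1 under quantile normalization (-0.032; -0.076 to 0.11 without 1 array). Between Ezh2 KO and WT LICs they were Hspa1b under array weights (0.19) and the replicate block (0.59; -0.55 to 0.36 without 1 array), and, with the mean of probe sets, Dnajb1 (0.12; -0.17 to 0.078 without 1 array), Hsph1 (0.10) and Hsp90b1 (-0.057; -0.026 to 0.13 without 1 array). Without 1 array Hspe1 ranged from -0.26 to 0.0025 and Hspa5 from -0.36 to 0.068. Between Ezh2 KO LICs and LSK cells they were Hspa8 with the mean of probe sets (-0.12) and Dnajb1 under median centring (0.047) and the mean of probe sets (0.20; -0.17 to 0.081 without 1 array). Median centring raised the share of calls that were higher between WT LICs and LSK cells from 37.0% to 54.2%, and for Ezh2 KO LICs against LSK cells from 46.5% to 59.8%. The genes named outside the 10 were followed through the alternatives after the data were seen. Hspa1a has no value under the filter on dim genes. Where 1 Ezh2 KO array was left out, the other was assumed to vary like the rest.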
